A study of Mus musculus with 5 samples.

Results

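The genes Trpm5, Rgs13, Lrmp, Avil, Dclk1 and Pou2f3, all used as marks of tuft cells, were followed through 5 single-cell libraries of mouse gut organoids, cultures of gut epithelium grown in a gel. These 6 of the 18418 genes in the deposited tables were taken by name, and each had at least 1 molecule somewhere. Every group was 1 library from 1 plate of 384 wells. The libraries called Cys and Bud, after unexplained marks in their titles, came from small intestinal organoids of genotype Lkb1 -/-, and het from Lkb1 +/- organoids. The fetal library came from fetal intestinal organoids of genotype WT, and the library called WT from small intestinal organoids of the same genotype. The labels give the same growth medium, with Egf, R-spondin1 and Noggin, for all 5, and state neither how Lkb1 was disrupted nor how many clones or animals stood behind a plate. Cells were sorted into the wells and read with SORT-seq, a plate method that counts transcripts near their 3' end by unique molecular identifiers (UMIs). Wells with at least 1000 UMIs were kept, spike-ins left out: 359 in Cys, 318 in Bud, 351 in het, 371 in fetal and 302 in WT, with 4035219 to 5865507 UMIs per library.

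Tuft cells are rare chemosensory cells of the gut epithelium. They sense luminal metabolites, such as succinate in mice, through a cascade shared with taste cells: a receptor acts through a G protein and a phospholipase to release calcium, which opens the channel TRPM5. They also make eicosanoids, and in mice they release IL-25, which starts type 2 immune responses to worms and protists. Their formation in mice requires the transcription factor POU2F3, which belongs to a family that binds the octamer, a short DNA motif.

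In het and WT, but not in Cys, Bud or fetal, most of the molecules of these genes came from very few wells. In het, 8 of 351 wells held UMIs of at least 3 of the 6 genes, and these 8 wells carried 621 of the library's 658 UMIs of the 6 genes. WT had 1 such well with 90 of 103 UMIs, and Bud 1 with 15 of 38. Cys and fetal had none. In those libraries 1 gene each was spread over many wells without the others: Avil in 99 of 359 Cys wells and Dclk1 in 208 of 371 fetal wells.

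The start of transcription of the genes that behaved differently is shown here so that the regulatory sequence can be read beside the levels: Avil and Rgs13, which shared wells in het, and Dclk1, which has 2 start sites in the table. The windows are RefSeq sequences of GRCm38.p6, 300 bases each from 250 before to 50 after the start, written 5' to 3' in the direction of the gene. Capitals mark ATGCAAA, the octamer core, on either strand (TTTGCAT where it lies on the opposite strand).
Avil (chr10:127000459-127000758, forward strand): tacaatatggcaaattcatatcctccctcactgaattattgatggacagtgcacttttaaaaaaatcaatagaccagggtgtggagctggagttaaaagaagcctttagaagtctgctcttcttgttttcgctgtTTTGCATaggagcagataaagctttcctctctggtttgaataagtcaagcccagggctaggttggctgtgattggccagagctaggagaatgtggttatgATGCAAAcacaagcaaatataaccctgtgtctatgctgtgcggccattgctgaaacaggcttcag
Rgs13 (chr1:144177323-144177622, reverse strand): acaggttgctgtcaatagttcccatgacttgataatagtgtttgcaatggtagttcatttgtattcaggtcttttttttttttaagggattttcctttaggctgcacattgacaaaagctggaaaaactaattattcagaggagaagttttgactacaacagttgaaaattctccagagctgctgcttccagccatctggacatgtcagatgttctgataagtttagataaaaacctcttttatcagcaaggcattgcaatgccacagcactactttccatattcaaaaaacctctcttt
Dclk1, start site 1 (chr3:55242114-55242413, forward strand): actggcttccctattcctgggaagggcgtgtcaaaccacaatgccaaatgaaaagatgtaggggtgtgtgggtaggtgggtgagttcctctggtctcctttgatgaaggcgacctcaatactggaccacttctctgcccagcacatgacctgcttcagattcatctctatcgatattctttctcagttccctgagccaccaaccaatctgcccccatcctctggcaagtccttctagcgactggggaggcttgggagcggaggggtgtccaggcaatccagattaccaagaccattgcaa
Dclk1, start site 2 (chr3:55461478-55461777, forward strand): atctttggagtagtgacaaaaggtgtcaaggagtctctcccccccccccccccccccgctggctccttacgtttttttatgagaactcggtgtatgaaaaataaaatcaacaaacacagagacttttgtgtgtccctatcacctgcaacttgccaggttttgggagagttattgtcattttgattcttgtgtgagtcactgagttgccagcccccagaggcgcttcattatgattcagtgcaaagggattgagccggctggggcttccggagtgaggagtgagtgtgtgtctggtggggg
RefSeq windows were found for 4 of the 6 genes, 5 windows in all; Lrmp and Pou2f3 were not matched. The full octamer ATGCAAAT was in none of the 5 windows and in 1.74% of all 32851 promoter windows, both strands searched. Its core ATGCAAA, which every full octamer contains, was found 2 times in Avil, with first bases 115 and 15 bases before the start, and not in the windows of Trpm5, Rgs13 or Dclk1. The core was in 4.63% of all windows, and 0.292% held it at least 2 times. A match describes letters only and shows no binding.

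Trpm5 (chr7:143069153-143094642, reverse strand, GRCm38) encodes the calcium-activated cation channel of the taste cascade. It had 5 UMIs in Cys, 14 in Bud, 182 in het, 0 in fetal and 35 in WT. In counts scaled to 1000000 UMIs of the library (CPM), with 95% intervals that cover counting error only in brackets, Cys stood at 1.00 (0.326 to 2.34), Bud at 3.33 (1.82 to 5.59), het at 41.4 (35.6 to 47.9), fetal at 0 (up to 0.629) and WT at 8.67 (6.04 to 12.1). The het level lay far above the rest, and the WT interval lay above that of Bud. Of the 182 het UMIs, 165 lay in the 8 wells with at least 3 of the genes, and 26 of the 35 WT UMIs came from 1 well.

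Rgs13 (chr1:144138654-144177372, reverse strand), a regulator that shortens G protein signals, had 1 UMI in Cys (0.201 CPM), 3 in Bud (0.714 CPM), 232 in het (52.8 CPM), 0 in fetal and 24 in WT (5.95 CPM). All 24 WT UMIs came from 1 well, and 223 of the 232 het UMIs from the 8 wells. Lrmp (chr6:145115653-145174934, forward strand), a protein of the endoplasmic reticulum membrane, had 0 UMIs in Cys, 5 in Bud (1.19 CPM), 93 in het (21.2 CPM), 1 in fetal (0.170 CPM) and 16 in WT (3.97 CPM). The 5 Bud UMIs and the 16 WT UMIs each came from 1 well, the same wells that held most Rgs13.

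Avil (chr10:127000709-127020994, forward strand) encodes advillin, an actin-binding protein of the villin family. It had 203 UMIs in Cys (40.8 CPM, 35.3 to 46.8), 9 in Bud (2.14 CPM), 86 in het (19.6 CPM, 15.7 to 24.2), 4 in fetal (0.682 CPM) and 15 in WT (3.72 CPM). The 2 highest libraries differed in how the molecules were placed, with no Cys well above 11 UMIs and 39 of the 86 het UMIs in 1 well. Dclk1 (chr3:55242364-55539068, forward strand), a microtubule-binding protein kinase, had 3 UMIs in Cys (0.602 CPM), 0 in Bud, 46 in het (10.5 CPM), 541 in fetal (92.2 CPM) and 8 in WT (1.98 CPM). Fetal stood far above het, and het (7.66 to 14.0 CPM) above WT (0.856 to 3.91 CPM). Pou2f3 (chr9:43123939-43210369, reverse strand) had 3 UMIs in Cys (0.602 CPM), 7 in Bud (1.67 CPM), 19 in het (4.32 CPM, 2.603 to 6.75), 7 in fetal (1.19 CPM) and 5 in WT (1.24 CPM, 0.402 to 2.89).

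**Figure D1:**
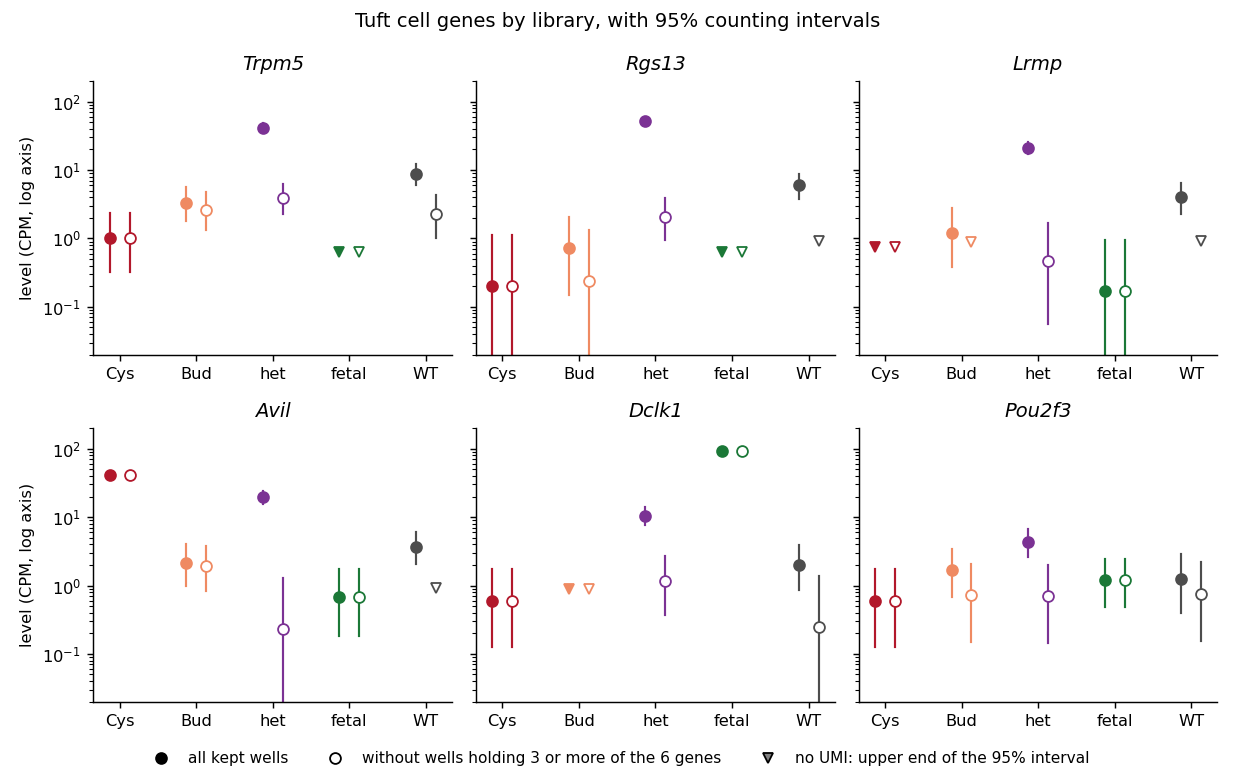
Level of each gene (CPM, log axis) in the 5 libraries, with filled points for all kept wells and open points without the wells that held 3 or more of the 6 genes; lines are 95% counting intervals, cut at the lower axis limit, and triangles stand at the upper end of the interval where there was no UMI. In het and WT the open points lie below the filled ones for every gene. Cys and fetal had no such well, so Avil in Cys (40.8 CPM) and Dclk1 in fetal (92.2 CPM) could not move.

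From high to low the libraries ran het, WT, Bud, Cys, fetal for Trpm5 and Rgs13 and het, WT, Bud, fetal, Cys for Lrmp. For Avil the order was Cys, het, WT, Bud, fetal, for Dclk1 fetal, het, WT, Cys, Bud, and for Pou2f3 het, Bud, WT, fetal, Cys. Neighbours in these orders whose counting intervals overlapped were the 3 lowest libraries for Trpm5 and Rgs13, the 4 lowest for Lrmp, the 3 lowest for Avil and for Dclk1, and all 5 for Pou2f3.

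The comparisons used 1 rule, and since no group had a replicate they describe libraries and carry no p-value. A gene with 10 or more UMIs over both libraries was called where its CPM differed by a factor of 1.5 or more and the exact conditional binomial 95% interval of the ratio left out 1. UMIs of 1 well share a cell, so these intervals are narrower than the spread between cells. All 4 comparisons with WT share that library, and with it its single well rich in tuft cell genes.

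Het against WT sets Lkb1 +/- beside WT small intestinal organoids. With 1 library from 1 plate each, genotype cannot be told apart from culture or plate. All 6 genes were called higher in het, where 8.43% of all 11652 measured genes were, and 0 lower, where 8.83% were. Trpm5 was 4.77 times the WT level (3.31 to 7.07), Rgs13 8.87 times (5.82 to 14.1), Lrmp 5.34 times (3.12 to 9.72), Avil 5.26 times (3.02 to 9.81), Dclk1 5.28 times (2.47 to 12.95) and Pou2f3 3.49 times (1.26 to 11.9). Without the wells holding at least 3 of the genes, an alternative chosen after seeing the data, 0 of 6 were called. Trpm5 was then at 3.93 CPM in het (17 UMIs) against 2.24 CPM in WT (9 UMIs), a ratio of 1.76 (0.740 to 4.47). The other 5 genes no longer reached 10 UMIs over both libraries, with Rgs13 at 9 UMIs in het against 0 in WT. The share of wells with at least 3 of the genes was 2.28% in het (0.989 to 4.44) against 0.331% in WT (0.00838 to 1.83). The ratio of these shares was 6.88 with a counting interval of 0.923 to 305, which includes 1.

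In both Lkb1 -/- libraries Trpm5, Rgs13 and Lrmp were called lower than in WT, while Avil was called higher in Cys. In Cys against WT, the lower genes were 3 of 5 measured, where 22% of all genes were lower. Avil was called higher, where 17.6% were. Trpm5 was 8.64-fold lower (3.37 to 28.3), Rgs13 had a ratio of 0.0338 on 1 UMI (0.000821 to 0.207), and Lrmp was at least 6.58-fold lower against a floor of 3 UMIs in Cys. Avil was 11.0 times the WT level (6.49 to 19.9). In Bud against WT, the same 3 genes were called lower among 5 measured, where 8.67% of all genes were lower. None was called higher, where 5.79% were. Trpm5 was 2.602-fold lower (1.36 to 5.23), Rgs13 had a ratio of 0.120 on 3 UMIs (0.0232 to 0.396), and Lrmp was 3.33-fold lower (1.17 to 11.6). Leaving out the wells with at least 3 of the genes, which takes 1 well from WT and 1 from Bud, ended all of these lower calls. Trpm5 then stood at 1.00 CPM in Cys, 2.62 in Bud and 2.24 in WT, so that the Bud to WT ratio turned to 1.17 (0.442 to 3.20), and Rgs13 and Lrmp no longer reached 10 UMIs. Avil in Cys then had 203 UMIs against 0 in the remaining WT wells. That is no check on its higher call. Cys lost no well, and all 15 WT UMIs of Avil lay in the well left out, so the ratio could only rise.

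Against het, 5 of the 6 genes were lower in both Lkb1 -/- libraries. In Bud against het all 6 genes were called lower, where 11.7% of all genes were, and 0 higher, where 8.94% were. Trpm5 was 12.4-fold lower (7.21 to 23.2), Lrmp 17.8-fold lower (7.35 to 56.0) and Avil 9.13-fold lower (4.59 to 20.6), and Dclk1 was at least 14.6-fold lower. In Cys against het 5 were called lower, where 21.3% were, and Avil higher (18.9%), at 2.08 times the het level (1.61 to 2.71). Trpm5 was 41.3-fold lower in Cys than in het (17.4 to 128.6). Without the wells rich in the genes, 1 lower call was left in Bud, that of Rgs13 (1 UMI against 9). In Cys, Trpm5 (5 against 17) and Rgs13 (1 against 9) were still called lower. Avil in Cys was then at 203 UMIs against 1 in het, a ratio of 176 (31.3 to 6999.7). This ratio could only rise, since 85 het UMIs of Avil lay in the wells left out and Cys lost no well.

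In Cys against Bud, both of genotype Lkb1 -/-, 3 genes were measured. Avil was called higher in Cys, where 19.2% of all genes were, at 19.0 times the Bud level (9.82 to 42.2). Trpm5 was called lower in Cys, where 19.5% were, by 3.32-fold (1.13 to 11.8) on 5 UMIs against 14, a ratio of 0.301. The call was lost, at ratios of 0.342 without the wells over 100000 UMIs, 0.367 without those rich in Kcnq1ot1 and 0.383 without those holding at least 3 of the genes. Pou2f3 was not called, with 3 UMIs in Cys and 7 in Bud.

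In fetal against WT, Dclk1 was called higher, where 29.4% of all genes were, at 46.5 times the WT level (23.4 to 108). Of the 8 WT UMIs of Dclk1, 7 lay in the well rich in the genes. Without it the ratio was 371 (66.3 to 14683) on 541 UMIs in fetal against 1 in WT. Fetal lost no well, so this ratio could only rise. Trpm5, Rgs13, Lrmp and Avil were called lower, where 22.3% were: Trpm5 by at least 17.0-fold and Rgs13 by at least 11.6-fold against a floor of 3 UMIs in fetal, Avil by 5.45-fold (1.74 to 22.6), and Lrmp with a ratio of 0.0430 on 1 UMI (0.00103 to 0.277). Without the 1 WT well rich in the genes 0 were called lower, since none of the 4 then reached 10 UMIs. Trpm5 had 0 UMIs in fetal against 9 in WT. Pou2f3 had 7 UMIs in fetal and 5 in WT, a ratio of 0.963 (0.263 to 3.85).

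Counted by wells, Trpm5 was found in 4 Cys wells (1.11%), 10 Bud wells (3.14%), 21 het wells (5.98%), 0 fetal wells and 6 WT wells (1.99%). The 0 of 371 fetal wells allows a share of up to 0.809% with a UMI if 3 wells are taken as the floor, and 0.989% by the Clopper-Pearson limit. Rgs13 was in 1 Cys, 2 Bud, 17 het, 0 fetal and 1 WT wells, and Lrmp in 0 Cys, 1 Bud, 9 het, 1 fetal and 1 WT wells. Pou2f3 was in 3 Cys, 4 Bud, 9 het, 7 fetal and 3 WT wells, never in more than 2.56%. Avil was in 27.6% of Cys wells (23.0 to 32.5) and in 2.83% of Bud, 1.99% of het, 1.08% of fetal and 0.331% of WT wells. Dclk1 was in 56.1% of fetal wells (50.8 to 61.2), 2.56% of het and at most 0.836% of the other libraries. Thinned to 3000 UMIs per well, which left out 2 fetal and up to 69 other wells of a library, Avil was found in 8.23% of Cys wells and Dclk1 in 23.6% of fetal wells.

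Whether the genes met in the same wells differed between the libraries. Wells with at least 2 of the 6 genes numbered 4 in Cys, 2 in Bud, 10 in het, 9 in fetal and 2 in WT. Of the 15 possible pairs of genes, all 15 were found together in at least 1 well in het and all 15 in WT, against 3 in Cys, 10 in Bud and 3 in fetal. Outside the wells with at least 3 genes the pairs numbered 3 in Cys, 1 in Bud, 2 in het, 3 in fetal and 1 in WT. Every pair in Cys and in fetal thus came from wells with exactly 2 genes. For scale, wells with at least 3 of 6 enteroendocrine genes (Chga, Chgb, Tph1, Neurod1, Fev and Sct), which mark the hormone-secreting cells, numbered 0 in Cys, 0 in Bud, 4 in het, 0 in fetal and 5 in WT.

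**Figure D2:**
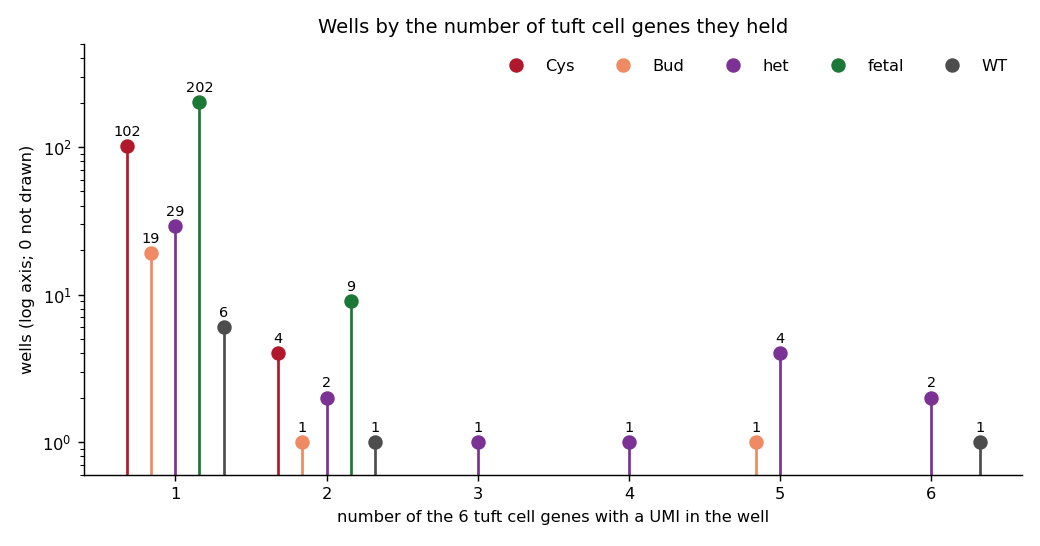
Number of kept wells (log axis) by how many of the 6 tuft cell genes had a UMI in the well, with a point for each library and its count above it; counts of 0 are not drawn. Cys and fetal reach 2 genes, where they have 4 and 9 wells, while het has 2 wells and WT 1 well with all 6.

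The 8 het wells were themselves graded. The well with most held 66 UMIs of Trpm5, 79 of Rgs13, 28 of Lrmp, 39 of Avil, 27 of Dclk1 and 6 of Pou2f3, 245 of its 14328 UMIs. A second well with all 6 genes had 93 UMIs of them, and 4 wells with 5 genes had 118, 80, 38 and 26. The last pair held 16 UMIs of 4 genes and 5 UMIs of 3 genes. Per 10000 UMIs of the well, the sum of the 6 genes ran from 26.0 to 171. Trpm5 and Rgs13 were found in all 8 wells, whereas Dclk1, a common tuft cell stain, was found in 4 and Pou2f3 in 6. The lowest of these wells had 1923 UMIs in all and 2.29% of them from Kcnq1ot1, a nuclear RNA often used in this method as a sign of damage.

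The WT well held 26 UMIs of Trpm5, 24 of Rgs13, 16 of Lrmp, 15 of Avil, 7 of Dclk1 and 2 of Pou2f3, 90 of its 12272 UMIs or 73.3 per 10000, within the range of the het wells. The Bud well held 3 UMIs of Trpm5, 2 of Rgs13, 5 of Lrmp, 1 of Avil, 0 of Dclk1 and 4 of Pou2f3 among 5318 UMIs, or 28.2 per 10000. It also held 20 UMIs of goblet cell genes and 4.005% of UMIs from Kcnq1ot1, above the 2% limit of one of the alternatives.

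**Figure D3:**
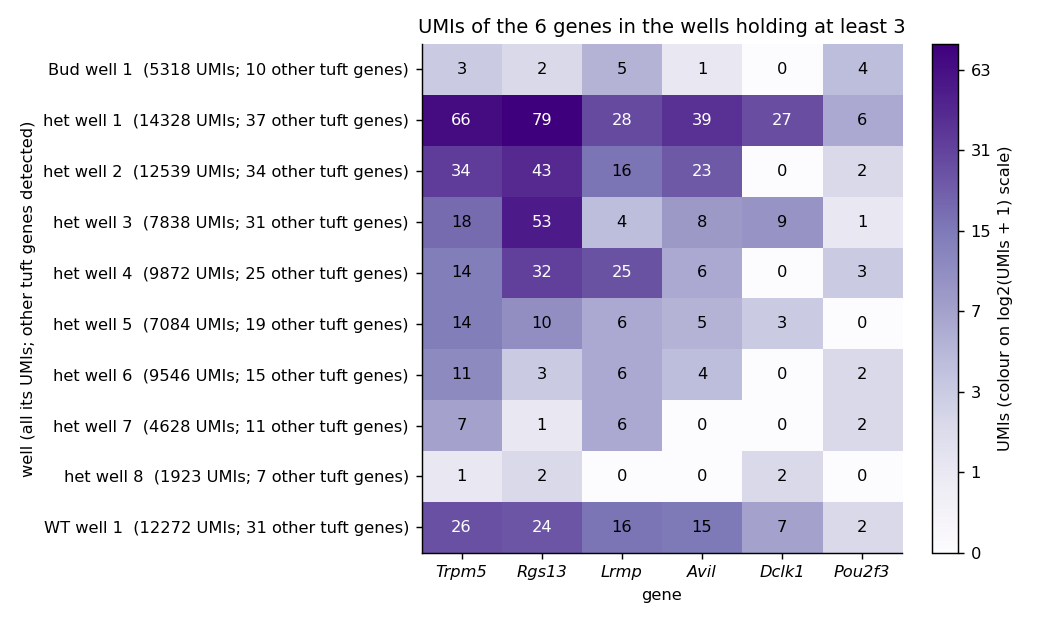
UMIs of each gene (columns) in each of the 10 wells that held at least 3 of the 6 genes (rows), with the well's total UMIs and the number of other listed tuft cell genes in it; the number in a cell is the UMI count and the colour its log2(UMIs + 1). The 8 het wells run from 245 down to 5 UMIs of the 6 genes, the Bud well holds 15 and the WT well 90.

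Other genes of the cell type were present in the same wells. Of 47 further tuft cell genes in 6 lists, the 8 het wells held between 7 and 37, with a median of 22, against a median of 2 and at most 10 in the other 343 het wells. Summed, these genes took 14183 CPM of the 8 wells and 368 CPM of the others, 38.5 times as much. By rank of the ratio between the 8 wells and the others, the first 15 genes were 5 of the 6 genes, 9 listed tuft cell genes (among them Alox5ap, Ptgs1, Spib, 1810046K07Rik, Sh2d7, Bmx, Kctd12 and Fyb) and Pik3cg, which encodes a catalytic subunit of phosphoinositide 3-kinase. The wells were chosen by the 6 genes, so that their own rank is no finding.

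Within most of the lists, some genes kept to these wells and others did not. Among taste signalling genes, the G protein subunits Gnat3, Gnb3 and Gng13, the phospholipase Plcb2 and the succinate receptor Sucnr1 had all of their few het UMIs in the 8 wells (11 for Sucnr1, 12 for Gnb3 and at most 5 for the others), whereas the calcium release channel Itpr3 had 4 UMIs there and 465 in other wells. Among eicosanoid genes, Alox5ap, the helper of 5-lipoxygenase, had 55 of 57 UMIs in the 8 wells, Ptgs1, which encodes cyclooxygenase 1, 67 of 72, and the prostaglandin D synthase gene Hpgds 22 of 30, while the phospholipase gene Pla2g4a had 42 of 381. Of the transcription factors, Spib had 49 of 53 UMIs and Hmx2 14 of 14 in the 8 wells, and Gfi1b 4 of 4, whereas Runx1 had 19 of 84. In the list named for kinases and adaptors, Sh2d7 (32 of 32), Fyb (20 of 20), Bmx (26 of 27) and Plcg2 (32 of 38) had most of their UMIs in them. The phosphatase gene Ptpn6 of that list had 66 of 166. Of the cytokine receptor genes, Il13ra1 had 81 of 185 UMIs in the 8 wells and Il4ra 9 of 56. In the list that gathers tuft cell genes of no other list, those with at least 10 het UMIs ranged from Kctd12, with 79 of 89, to Skap2, with 15 of 158. Il25 itself had no UMI in any of the 5 libraries, and neither had Hmx3, Sh2d6 or Siglecf.

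**Figure D4:**
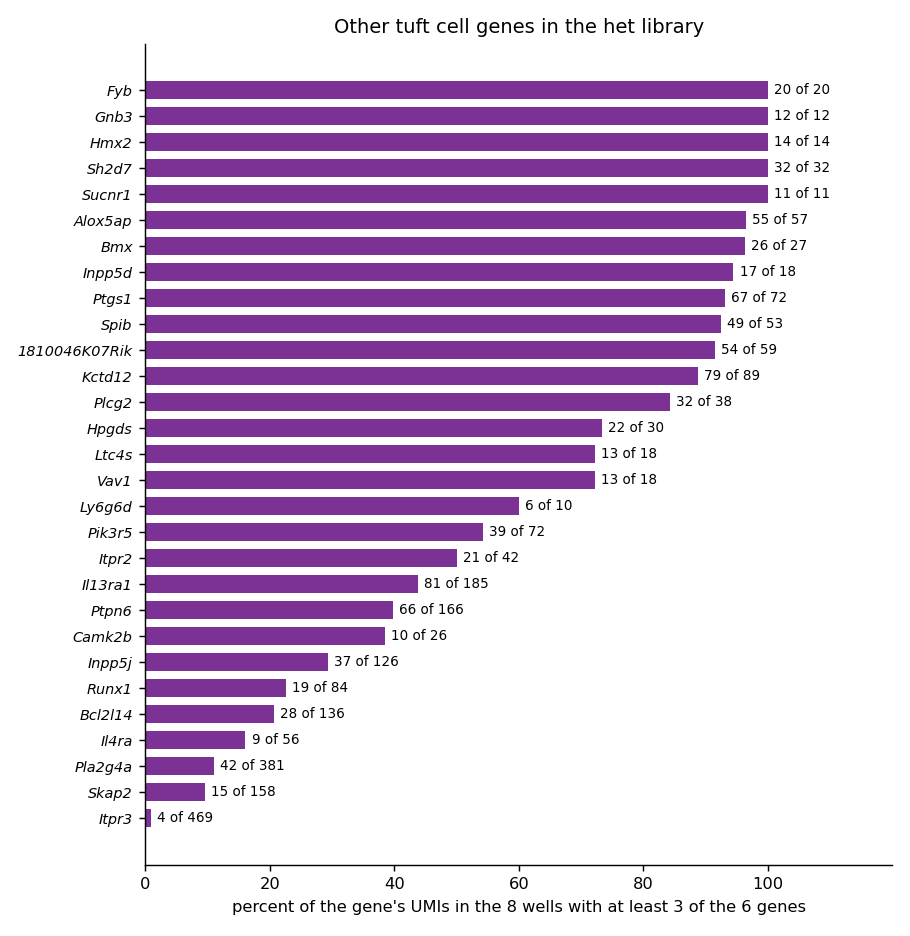
Percent of each gene's het UMIs (horizontal axis) that lay in the 8 wells with at least 3 of the 6 genes, for 29 of the listed tuft cell genes that had at least 10 UMIs in het; the text beside a bar gives the UMIs in these wells of all. For 18 of the 29 genes drawn over 50% lay in the 8 wells, and for 5 of them all did, while Itpr3 had 4 of 469.

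Enterocyte, goblet and cycling cell genes were scarce in the 8 wells. The summed stem cell list, mostly by Ascl2, was nearer to its level elsewhere, and the immune list, mostly by Kit, was higher. Enterocyte genes stood at 354 CPM there against 6210 CPM in the other het wells, 17.5-fold lower, and goblet cell genes at 88.6 against 2412 CPM, 27.2-fold lower. Genes of cycling cells were 4.99-fold lower, and stem cell genes were at 694 against 893 CPM. Ascl2, a stem cell transcription factor, had 28 UMIs in 7 of the 8 wells. These wells held 1.54% of the library's UMIs and 4.51% of its Ascl2 UMIs. The other stem cell genes fell below that share, at 0.952% for Smoc2, 0.388% for Lgr5, 0.289% for Axin2 and 0 for Olfm4. The immune list stood at 443 CPM in the 8 wells against 24.7 CPM in the others, and 27 of its 30 UMIs there were of Kit, a receptor kinase of mast cells, in 6 wells. Itgam had the other 3 UMIs, and Ptprc, the pan-leukocyte marker, had 0, as did Cpa3 of the same list. Kit was not confined to the 8 wells, with 75 UMIs in 28 of the other 343 het wells. Outside the wells with at least 3 of the 6 genes, Kit had 118 UMIs in 55 of 301 WT wells and 244 in 113 of 317 Bud wells. Anxa1, of the fetal and regenerative list, had 8 UMIs in 5 of the 8 wells, whereas Clu, Ly6a and Il33 of that list had 0. The part of these genes in the result was not tested. Mesenchymal and endothelial genes had 0 UMIs there. The wells were not deeper than the others, with a median of 8692 against 11573 UMIs. The members had 3.13 reads per UMI in the 8 wells and 1.73 in the other het wells, against 3.21 over all genes. WT and Bud went the other way. Reads per UMI were 2.44 in the WT well and 3.77 in the other WT wells, and 3.07 and 3.43 in Bud.

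By the same rule for calls, 19 of 31 measured further genes were higher in het than in WT, where 8.43% of all genes were, and 0 lower, where 8.83% were, with a median log2 ratio of 0.35 against -0.02 over all measured genes (10 CPM added to both values). The higher ones included Spib at 8.11 times the WT level (3.49 to 23.1). With genes at 0 UMIs placed at the floor of 3 UMIs and no CPM added, the medians were 1.08 and -0.03. Without the wells holding at least 3 of the 6 genes, 1 was higher and 1 lower. In Cys against WT 7 of 22 were higher and 6 lower, where 17.6% and 22% of all genes were (median 0.02 against -0.06). In Bud against WT 2 of 20 were higher and 5 lower, where 5.79% and 8.67% were (median -0.17 against -0.04). In fetal against WT 9 of 21 were higher and 4 lower, where 29.4% and 22.3% were (median 0.20 against 0.06). In Cys against Bud 8 of 18 were higher and 3 lower, where 19.2% and 19.5% were (median 0.17 against -0.03). The 6 lower genes in Cys and the 4 lower in fetal are shares near those of all genes. With genes at 0 UMIs at the floor, the medians of the further tuft genes and of all measured genes were 0.18 and -0.10 in Cys against WT, -0.31 and -0.06 in Bud against WT, 0.34 and 0.10 in fetal against WT, and 0.50 and -0.05 in Cys against Bud. Without the wells holding at least 3 of the 6 genes, 2 were lower in Cys than in WT and 2 in Bud than in WT.

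Several of these genes were plentiful in Cys and fetal, which had no well with 3 of the 6. Ptgs1 had 264 UMIs in Cys, 2 in Bud, 72 in het, 697 in fetal and 10 in WT, in 131 Cys and 269 fetal wells. It was 21.4 times the WT level in Cys (11.4 to 45.1) and 48.0 times in fetal (25.9 to 100). Pla2g4a was 2.19 times the WT level in Cys (1.91 to 2.51) and 1.96 times in fetal (1.71 to 2.25), and Runx1 1.83 times in Cys (1.42 to 2.37) and 3.03 times in fetal (2.41 to 3.86). Alox5ap had 114 UMIs in fetal against 5 in WT, 15.7 times the WT level (6.53 to 49.2), and 1 UMI in Cys. Spib had 0 UMIs in Cys and 2 in fetal, Sh2d7 none in either, and Sucnr1 1 in Cys and 0 in fetal.

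Avil in Cys was spread thinly, and other tuft cell genes were found about as often in wells without it as in wells with it. Of 99 wells with a UMI, 58 had 1, 33 had 2 to 4 and 8 had 5 or more. The wells with Avil were deeper, with a median of 16249 UMIs against 8691 in the 260 without. Another of the 6 genes was present in 3 of the 99 wells (3.03%, 0.629 to 8.60) and in 7 of the 260 (2.69%, 1.09 to 5.47). The 47 further tuft cell genes stood at 544 CPM in wells with Avil and 559 CPM in those without. Both Cys wells over 100000 UMIs, which held 12.0% of the library, gave 22 of the 203 Avil UMIs, and without them the level was 41.3 CPM. Reads per UMI of Avil in Cys were 2.32, against 3.06 over all genes of the library.

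Avil lies against Tsfm, a gene for a mitochondrial translation factor, on the opposite strand at its 3' end, and the sources used here do not say how the authors' counting treated strand. Tsfm stood at 41.8 CPM in Cys, 43.6 in Bud, 34.1 in het, 33.6 in fetal and 52.0 in WT. Outside the wells with at least 3 of the 6 genes, there were 97.6 Avil UMIs per 100 Tsfm UMIs in Cys, 4.37 in Bud, 0.667 in het, 2.03 in fetal and 0 in WT. Tsfm had a UMI in 50.5% of the Cys wells with Avil and 31.5% of those without, and its part in the Avil count was not tested. Trpm5 likewise meets Tssc4 at its 3' end, which stood at 37.3 CPM in Cys, 29.3 in Bud, 34.1 in het, 22.0 in fetal and 28.7 in WT. Casc1, at the end of Lrmp, had 1 UMI in all 5 libraries.

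Some relatives of advillin were also called higher in Cys. The villin-like gene Vill had 200 UMIs in Cys, 10 in Bud, 0 in het, 447 in fetal and 2 in WT, and the actin-capping gene Capg stood at 144 CPM in Cys, 12.4 in Bud, 5.69 in het, 206 in fetal and 5.45 in WT. Of 6 measured relatives 3 were called higher in Cys than in WT (Vill, Gsn and Capg) and 0 lower, where 17.6% and 22% of all genes were. In fetal against WT 6 of 7 were higher, where 29.4% of all genes were, and Vil1, the villin of the enterocyte brush border, was lower, where 22.3% were. Avil itself was among the lower genes in fetal.

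Dclk1 in fetal was found in most wells at low counts: 88 wells had 1 UMI, 92 had 2 to 4 and 28 had 5 or more, with 16 at most. Wells with it had a median of 15576 UMIs, against 13064 in the 163 without. Another of the 6 genes was present in 9 of the 208 wells (4.33%, 1.997 to 8.05) and in 3 of the 163 (1.84%, 0.381 to 5.28). The further tuft cell genes stood at 715 CPM in wells with Dclk1 and 656 CPM in those without, and fetal and regenerative genes (Clu, Ly6a, Anxa1 and Il33) at 8152 CPM in wells with it and 7655 CPM in those without. Its reads per UMI were 3.59, against 2.78 over all genes of the library. Mesenchymal genes, at 2.63 CPM in wells with Dclk1 and 2.05 CPM in those without, were near 0 in both.

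**Figure D5:**
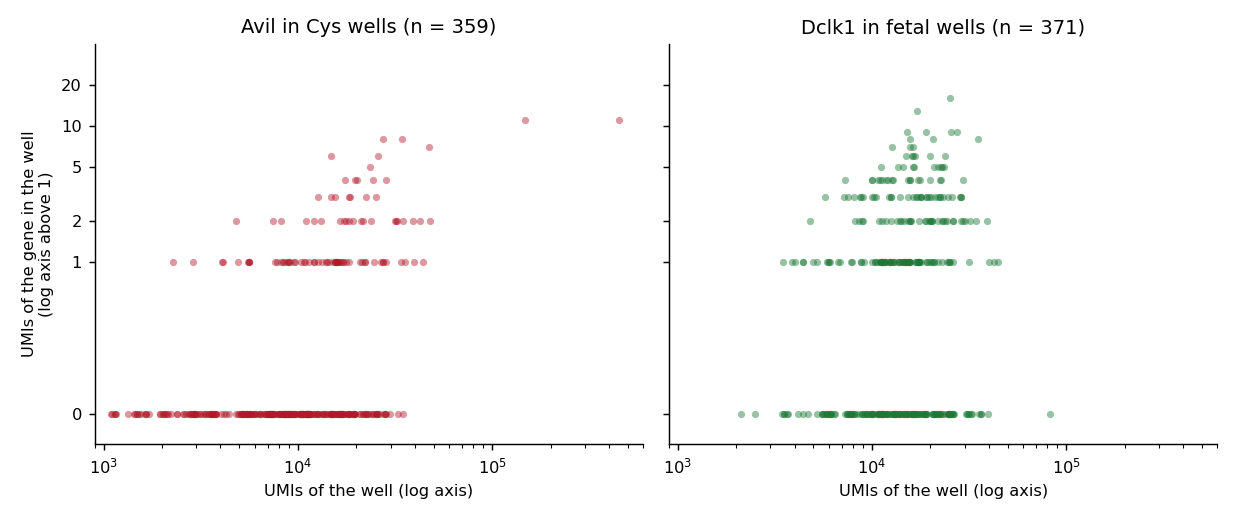
UMIs of Avil in each Cys well (left) and of Dclk1 in each fetal well (right) against the UMIs of the well (log axis); the vertical axis is logarithmic above 1 and each point is 1 well. Both genes lie at 0 to 5 UMIs in most wells, and both Cys wells beyond 100000 UMIs hold 11 UMIs of Avil each.

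The genes whose levels ran most like each of them over the 5 libraries, by the smallest root mean square difference of centred log2(CPM + 10) among 10618 genes, were not tuft cell genes, with 1 exception. For Dclk1 the 5 nearest included Cyr61, Gprc5c, Trip6 and Rbp4 (differences 0.23 to 0.32), which were all highest in fetal. For Avil they were Gsta3, Lars2, Mira, Fam3b and Gm14446 (0.24 to 0.34). For Trpm5 the 5 nearest included Slit2, Clec2h, Adh4 and Ugt2b5 (0.17 to 0.19), all highest in het and second in WT, and Rgs13 had Trpm5 among its 5. Lrmp was nearest to Cyp3a13, and Pou2f3 had too few UMIs to rank. Over the 359 Cys wells, the gene most like Avil was 2410004B18Rik, with a Pearson correlation of 0.28, close to the 0.22 of Avil with log2 depth. Over the 371 fetal wells the nearest to Dclk1 were Rbms3 and St3gal5, at 0.32 each, against -0.02 with depth. These are descriptions over wells of 1 library in sparse counts.

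The libraries differed in other ways that bear on these counts. Wells with over 2% of UMIs from Kcnq1ot1 made up 0.539% (fetal) to 17.1% (het) of kept wells. All 384 well codes occur in all 5 tables, and the Cys well with the code of the WT well rich in tuft cell genes held 1 UMI each of Rgs13 and Dclk1. Enterocyte genes stood at 16.3 CPM in Cys, 1076 in Bud, 6119 in het, 0.511 in fetal and 3176 in WT, and enteroendocrine genes at 0.803 CPM in Cys, 2.38 in Bud, 128.8 in het, 0.170 in fetal and 192 in WT. The part of these differences in the levels of the tuft cell genes was not tested. Endothelial genes had at most 6 UMIs and mesenchymal genes at most 14 in a library. The targeted gene, Stk11, which encodes LKB1, stood at 9.03 CPM in Cys, 11.7 in Bud, 14.1 in het, 16.03 in fetal and 20.6 in WT, and a 3' tag does not check the genotypes where the disrupted stretch is unknown.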

How the data were processed

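For each of the 5 libraries the authors deposited a table of UMI counts by gene and well, a table of read counts, and a transcript table of estimated counts, in which UMI counts are corrected for identifier collisions. Per the labels, the plates were made with SORT-seq and CEL-Seq2. STAR 2.6.1 and featureCounts 1.5.2, with the build GRCm38 and Seurat 4.1.0, are named in the submitters' processing notes. How strand was handled is not stated there, which leaves values of overlapping genes uncertain.

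The 6 genes, the gene lists and the rules were chosen with earlier results of these data known. UMIs, without spike-ins, were summed over wells with at least 1000 UMIs and scaled to CPM. A gene absent from a table was taken as 0 UMIs. Levels have exact Poisson intervals, shares Clopper-Pearson intervals and ratios exact conditional binomial intervals, all at 95% and for counting error only. Folds against 0 UMIs use a floor of 3 UMIs per library. The named genes were all 6, listed genes with at least 10 UMIs in a library or a UMI in at least 2 wells that held 3 of the 6 genes, the 5 genes most alike, and the 15 with the largest ratio in such wells. A few genes that these rules name are not reported here. Doublets were not called. Cells were sorted into wells, but wells with more than 1 cell were not excluded by any check. The call rule was tested on simulated library totals, and the thinning to 3000 UMIs (seed 1) was checked on a part of the WT wells. The simulation drew each gene's total independently, so it does not cover genes whose UMIs pile up in few wells. Read counts served only for reads per UMI, and the transcript table, rounded after summing, as an alternative. Further alternatives were other well filters, other scalings (edgeR 4.0.16 TMM, median of ratios), equal weight for every well and wells left out. Python 3.11.15, NumPy 2.4.6, pandas 2.3.3 and SciPy 1.17.1 were used. Gene positions come from GENCODE annotation of GRCm38 and promoter windows from RefSeq (GRCm38.p6).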

Additional observations from a re-analysis of the deposited data

How the results depend on the processing

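Of 134 recomputed counts of called members, 116 stayed within 1.5 times, as did 32 of 40 counts for the other tuft cell genes. These tallies include counts that were 0 and stayed 0, so they are a weak measure of stability. A change from 3 to 2 also stays within 1.5 times. With equal weight for every well, 2 members were lower in Bud against WT, as Lrmp (ratio 0.685) was no longer called. Both well filters (500 and 3000 UMIs), the transcript table, both other scalings and a ratio of 2 moved no count of called members past 1.5 times. No paired analysis was possible because every group is 1 library with no replicate number.

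Without the wells holding at least 3 of the genes, chosen after seeing the data, members called higher in het against WT numbered 0, and members called lower numbered 0 in Bud against WT, 0 in Cys against WT, 0 in fetal against WT and 0 in Cys against Bud. Other tuft cell genes then called lower were 2 in Bud against WT and 2 in Cys against WT, and 1 was higher and 1 lower in het against WT. Leaving out the 1 well with most UMIs of each gene gave 0 members lower in Bud, in Cys and in fetal against WT, and 2 other tuft cell genes lower in each. In het against WT it left all 6 members higher. For Trpm5, Rgs13, Lrmp, Avil and Dclk1 it took out the only WT well rich in the genes but 1 of 8 in het. WT was left with 0 UMIs of Rgs13, Lrmp and Avil, so this alternative is no check on the higher calls. Requiring 50 UMIs gave 0 lower members in Bud, Cys and fetal against WT and in Cys against Bud, since fewer genes were tested. Against het, members called lower were 6 in Bud and 5 in Cys. In Cys against Bud the 1 lower member became 0 without wells over 100000 UMIs and without wells with over 2% Kcnq1ot1, and 2 with no minimum of UMIs or with equal weight for every well. Without the Kcnq1ot1 wells, Bud had 0 wells with at least 3 members, and 1 other tuft cell gene was higher in Bud than in WT. The Trpm5 ratio of Bud to WT reversed to 1.17 without wells holding at least 3 members. For Trpm5 the top wells are these same wells, so leaving out the top wells repeats that value. The wells left out held 26 Trpm5 UMIs in WT and 3 in Bud, and 9 and 11 remained. What lies behind the WT well was not tested.

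Without the well with most UMIs of the gene, het levels were 34.9 CPM for Rgs13, 26.5 CPM for Trpm5 and 4.34 CPM for Dclk1. Genes with under 10 UMIs in a library are limited by depth, and no value measures the spread between cultures.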
